A study of Caenorhabditis elegans with 2 samples.

Results

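The lysozyme genes *lys-1* to *lys-10* of *C. elegans* were described in the RNA of worms that fed on *L. plantarum* with a trace of *E. coli*. The 10 genes were taken by their symbols, which were paired with the WormBase identifiers of the deposited table, and they are 10 of the 46904 genes listed there. The rule uses the names alone, although the family was chosen for description with earlier results of these data known. All worms were N2, the wild-type strain, and RNA came from whole worms. Their food was *L. plantarum* to which 0.2 µl of *E. coli* was added, either the wild-type strain BW25113 (the wild-type diet) or a mutant in *pdxH* (the *pdxH* diet), the bacterial gene for the oxidase that makes pyridoxal 5′-phosphate, the active form of vitamin B6. The comparison asks which host transcripts differ when the trace *E. coli* cannot make this vitamin. Each diet gave 1 library, so no value below has a replicate, and an interval is a 95% interval of the counting error alone that does not cover the variation between worm cultures.

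Lysozymes cleave peptidoglycan, the polymer that gives the bacterial cell wall its strength. Bacteria are food for *C. elegans* and can also infect its gut, and lysozymes are known in both roles, as digestive enzymes and as effectors of innate immunity. The *lys* genes encode proteins related to the lysozymes of protists such as amoebae, while a separate family, the *ilys* genes, encodes lysozymes of the invertebrate type. Several *lys* genes are known to be active in the intestine and to respond to infection. Gram-positive bacteria such as *L. plantarum* carry a thick peptidoglycan layer.

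The 10 genes lie on 4 chromosomes of the WBcel235 genome (the same assembly as ce11), and 6 of them stand in a pair of clusters. On chromosome V, *lys-1* (WBGene00003090, 10277904 to 10279056, plus strand) is followed by *lys-2* (WBGene00003091, 10280307 to 10281474) and *lys-3* (WBGene00003092, 10282100 to 10283544), both on the minus strand. The gap between *lys-1* and *lys-2* is 1250 bases and that between *lys-2* and *lys-3* is 625 bases. On chromosome IV, *lys-4* (WBGene00003093, 11621429 to 11623174), *lys-5* (WBGene00003094, 11624252 to 11625582) and *lys-6* (WBGene00003095, 11626910 to 11627947) follow each other on the minus strand with gaps of 1077 and 1327 bases. The other genes stand apart from these clusters. *lys-7* (WBGene00003096) is on chromosome V from 3481432 to 3482600, *lys-8* (WBGene00003097) on chromosome II from 5586178 to 5587651, *lys-9* (WBGene00003098) on chromosome I from 12454853 to 12455826 and *lys-10* (WBGene00003099) on chromosome IV from 8332826 to 8333518. By their coding lengths the genes fell into a longer set of *lys-1*, *lys-2*, *lys-3*, *lys-7* and *lys-8*, from 837 to 903 bases, and a shorter set of *lys-4*, *lys-5*, *lys-6*, *lys-9* and *lys-10*, from 642 to 690 bases. Each gene has 1 annotated transcript, and its reads were therefore not divided among isoforms.

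The library of worms fed wild-type *E. coli* held 40707752 reads assigned to genes and that of the *pdxH* diet held 46372171. Summed over the 10 *lys* genes, 48067 reads were found on the wild-type diet and 54764 on the *pdxH* diet. In reads per 1000000 reads assigned to genes (RPM) this was 1181 (95% interval 1170 to 1191) and 1181 (1171 to 1191), a log2 ratio of 0.00023 (-0.017 to 0.018). With each library scaled to its total, the summed lysozyme level thus did not differ beyond the counting error, but the log2 ratio was 0.031 with upper quartile scaling and 0.22 when centred on intestine markers. Its make-up differed, as the values of the single genes show.

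*lys-7* was the only member with a change past the call used here. *lys-7* is a known target of the FoxO transcription factor DAF-16 and takes part in the defense against several pathogens. It had 1929 reads on the wild-type diet and 1344 on the *pdxH* diet, or 47.4 (95% interval 45.3 to 49.5) and 29.0 (27.5 to 30.6) RPM. The *pdxH* library was lower, and the intervals of the libraries did not overlap. Its log2 ratio, the value of the *pdxH* library divided by that of the wild-type library after adding 1 to each on the deposited scale, was -0.71 (95% interval -0.81 to -0.61), which is 1.63-fold lower on the *pdxH* diet.

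A gene was called when the 1% tail of its log2 ratio, the end nearest to no change, lay past 0.5 in either direction, a measure modelled on that of the GFOLD program for libraries without replicates. For *lys-7* this tail was -0.59. Of the 10 *lys* genes, 1 was called lower and 0 were called higher. Of the 23141 genes with a read in 1 or both libraries, 3.78% were called lower and 0.601% higher, and of the 13227 genes with at least 100 reads in both libraries together, 5.52% were called lower and 0.801% higher. A single lower member among 10 is a share near this background, and nothing about the family is read from it. Among the genes with at least 100 reads, 5.97% had a log2 ratio below that of *lys-7*. The call rests on counting error alone. With an assumed coefficient of variation (CV) of 0.1 between cultures the 95% interval of *lys-7* was -1.12 to -0.30 and the tail was -0.22, so the call was lost, and with an assumed CV of 0.2 the interval was -1.52 to 0.097 and reached 0. No value for this CV can be had from these libraries. The call was also lost when the threshold on the tail was 1, and when the ratios were centred on 12 markers of the intestine, whose median log2 ratio was -0.22. With that centring *lys-7* was at -0.48. The log2 ratios of these markers ranged from -0.50 to 0.0032, and 9 of the 12 had an interval below 0. The size of the shift thus depends on which markers are listed, and centring on a part of the list was not tested. A smaller share of intestinal RNA in the whole worm and lower levels of these transcripts within the intestine cannot be told apart here. The part of either in the *lys* values was not tested.

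**Figure D1:**
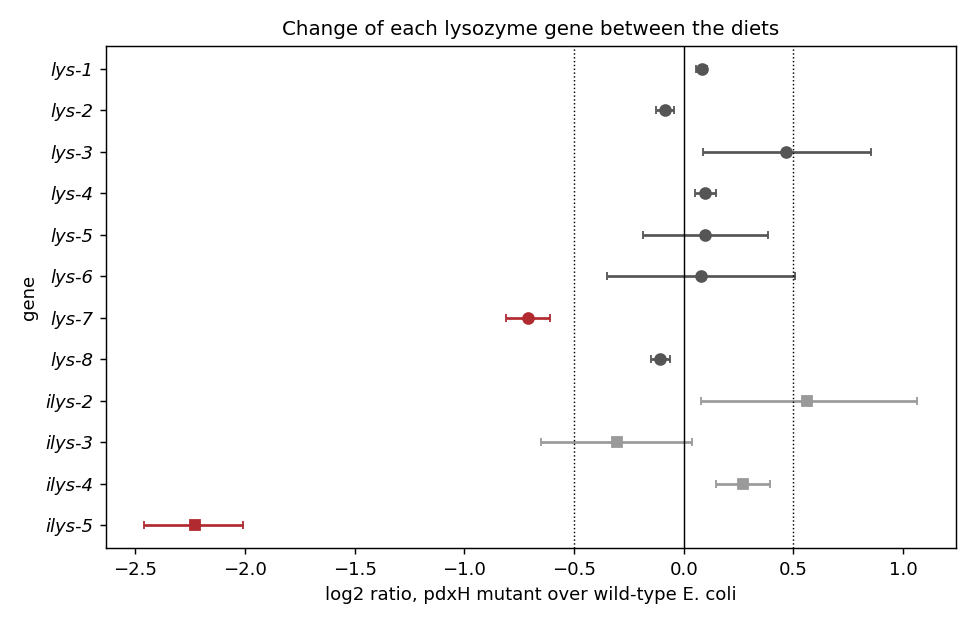
Log2 ratio (x axis, *pdxH* mutant over wild-type *E. coli*) of each *lys* gene (circles) and *ilys* gene (squares) that reached 100 reads over both libraries. Bars are 95% counting intervals, dotted lines mark a log2 ratio of 0.5 in either direction, and the genes called lower, *lys-7* at -0.71 and *ilys-5* at -2.23, are in red.

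The 4 most abundant members, *lys-1*, *lys-2*, *lys-4* and *lys-8*, held 95.3% of the *lys* reads on the wild-type diet and 96.7% on the *pdxH* diet, and each differed by far less than *lys-7*. *lys-1*, an intestinal lysozyme gene known to respond to infection with *Serratia marcescens*, had 22442 reads on the wild-type diet and 27063 on the *pdxH* diet, or 551 and 584 RPM. Its log2 ratio was 0.08 (95% interval 0.06 to 0.11). *lys-4*, the main gene of the chromosome IV cluster, had 6583 and 8028 reads, or 162 and 173 RPM. Its log2 ratio was 0.10 (95% interval 0.05 to 0.15). These 2 genes were thus slightly higher on the *pdxH* diet, and their log2 ratios differed from each other by -0.016 (95% interval -0.070 to 0.037).

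*lys-2*, the neighbor of *lys-1*, had 8868 and 9518 reads, or 218 RPM on the wild-type diet and 205 on the *pdxH* diet. Its log2 ratio was -0.09 (95% interval -0.13 to -0.04). *lys-8*, a gene known to lie downstream of the DBL-1 TGF-beta pathway in the response to infection, had 7900 and 8359 reads, or 194 and 180 RPM. Its log2 ratio was -0.11 (95% interval -0.15 to -0.06). *lys-2* and *lys-8* were thus slightly lower in RPM on the *pdxH* diet (but slightly higher relative to the intestine markers), with log2 ratios that differed by 0.021 (95% interval -0.040 to 0.081). All 4 of these genes had an interval without 0, but none was called, and with 1 library a diet these small differences could not be set against the spread between cultures.

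The remaining members had few reads. *lys-5* had 177 reads on the wild-type diet and 216 on the *pdxH* diet, a log2 ratio of 0.10 (95% interval -0.19 to 0.39). *lys-6* had 79 and 95 reads, a log2 ratio of 0.08 (95% interval -0.35 to 0.51). No difference in either gene was detectable at this depth, and their neighbor *lys-4* had nearly the same ratio at many more reads. *lys-3* had 88 and 139 reads, or 2.16 and 2.997 RPM, a log2 ratio of 0.47 (95% interval 0.09 to 0.86). This was the highest ratio of the members that reached 100 reads over both libraries, its tail was 0.016, and it was not called. Of the genes with at least 100 reads, 5.51% had a higher log2 ratio than *lys-3*.

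*lys-10* and *lys-9* were at or below the limit of detection, which was set at 3 reads per library. *lys-10* had 1 read on the wild-type diet and 2 on the *pdxH* diet, a log2 ratio of 0.50 with a 95% interval of -2.24 to 3.60, and no direction can be read from it. *lys-9* had 0 reads in each library, and the limit of 3 reads corresponds to 0.0737 RPM on the wild-type diet and 0.0647 on the *pdxH* diet. Over the 9 members with reads the median log2 ratio was 0.08, against 0.0042 over all genes with reads. Of these 9 members, 6 had a log2 ratio above 0 and 3 below it.

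**Figure D2:**
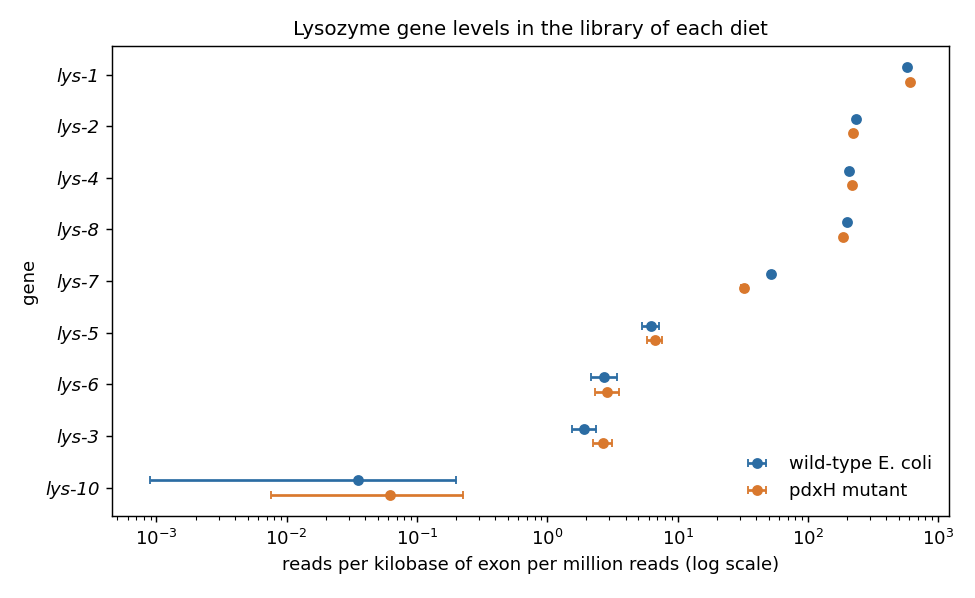
Level of each *lys* gene with reads (y axis) in RPM per kilobase of exon on a log scale (x axis), on the wild-type diet in blue and the *pdxH* mutant in orange. Bars are 95% counting intervals, *lys-9* had 0 reads and is not drawn, and the levels run from 575 for *lys-1* to 0.035 for *lys-10* on the wild-type diet.

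Levels of the genes were compared with each other per length, in RPM per kilobase of exon. On the wild-type diet the order was *lys-1* at 575, *lys-2* at 234, *lys-4* at 205, *lys-8* at 200, *lys-7* at 52.5, *lys-5* at 6.21, *lys-6* at 2.74, *lys-3* at 1.93 and *lys-10* at 0.035. *lys-1* was 2.46-fold higher per length than *lys-2* (95% interval 2.40 to 2.52). *lys-8* and *lys-4* did not differ beyond the counting error, with a ratio of 0.975 (95% interval 0.944 to 1.007). On the *pdxH* diet the levels were 609 for *lys-1*, 220 for *lys-2*, 219.7 for *lys-4*, 186 for *lys-8*, 32.1 for *lys-7*, 6.65 for *lys-5*, 2.89 for *lys-6*, 2.67 for *lys-3* and 0.062 for *lys-10*. The order of the genes was the same in both libraries, but other neighbors in it were alike on the *pdxH* diet. *lys-2* and *lys-4* had a ratio of 1.003 (95% interval 0.974 to 1.034) there, against 1.14 (1.104 to 1.177) on the wild-type diet. *lys-6* and *lys-3* had a ratio of 1.08 (95% interval 0.833 to 1.40), against 1.42 (1.05 to 1.92).

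In both libraries *lys-1* was among the abundant transcripts of the worm, and its cluster neighbor *lys-3* was not. Among the 23082 genes with reads and an annotated exon length, *lys-1* ranked 209 per length on the wild-type diet and 191 on the *pdxH* diet, while *lys-3* ranked 12481 and 11664. *lys-1* was 298-fold (95% interval 242 to 367) above *lys-3* in the wild-type library and 228-fold (193 to 269) in the *pdxH* library. In the chromosome IV cluster *lys-4* was 33.04-fold (95% interval 28.5 to 38.3) above *lys-5* on the wild-type diet and 33.02-fold (28.8 to 37.8) on the *pdxH* diet. *lys-4* was likewise 74.98-fold (60.1 to 93.5) and 76.0-fold (62.1 to 93.0) above *lys-6*. Each cluster thus held a single main gene or pair of genes with far weaker neighbors. *lys-7* moved further in rank than the other abundant members, from 2161 on the wild-type diet to 3348 on the *pdxH* diet.

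**Figure D3:**
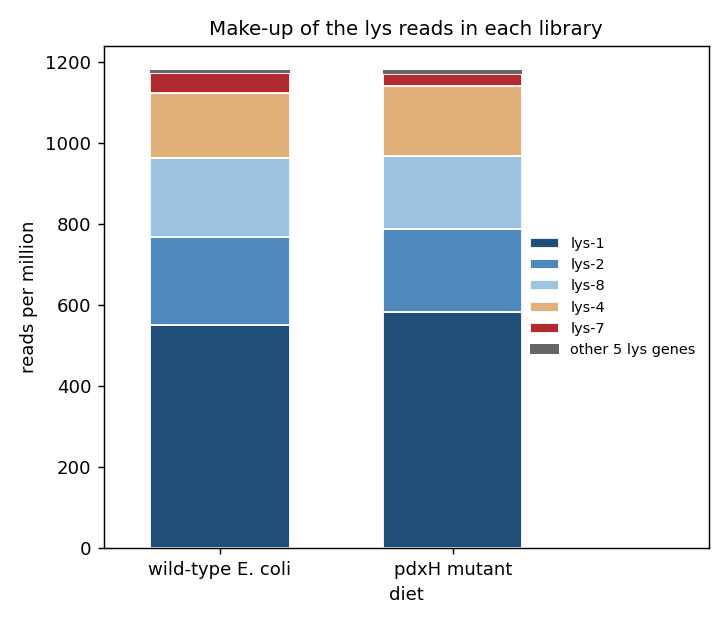
RPM (y axis, from 0) of the *lys* genes in the library of each diet (x axis), stacked by gene. Both stacks reach 1181 RPM, while the *lys-7* segment is 47.4 on the wild-type diet and 29.0 on the *pdxH* diet and the *lys-1* segment is 551 and 584.

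The make-up of the *lys* reads shifted accordingly. *lys-1* made up 46.7% of them on the wild-type diet and 49.4% on the *pdxH* diet, and *lys-7* made up 4.01% and 2.45%. The chromosome V cluster summed to 771 (95% interval 763 to 780) and 792 (784 to 800) RPM, a log2 ratio of 0.04 (0.02 to 0.06). The chromosome IV cluster summed to 168 (164 to 172) and 180 (176 to 184), a log2 ratio of 0.10 (0.05 to 0.14). Within the chromosome V cluster *lys-2* was below *lys-1* by 0.17 (95% interval of the difference 0.12 to 0.22) and below *lys-3* by 0.55 (0.17 to 0.94). Within the chromosome IV cluster the 3 log2 ratios were 0.10, 0.10 and 0.08, and no pair of them differed beyond the counting error. The intervals of these pairs were wide, from -0.29 to 0.29 for *lys-4* and *lys-5* and from -0.41 to 0.45 for *lys-4* and *lys-6*. A difference as small as that between *lys-1* and *lys-2* could not be detected there, so the clusters cannot be contrasted on this point. Among the 8 members with at least 100 reads the log2 ratios of 28 pairs were compared, with intervals not adjusted for the number of pairs. *lys-7*, which had the lowest log2 ratio of the 8, was below the other 7 by 0.60 to 1.18, with intervals that left out 0 in 7 of 7 pairs. The direction follows from its place as the lowest. The 7 pairs share the *lys-7* reads, and their intervals cover counting error alone. Of the 21 pairs without *lys-7*, 7 had an interval that left out 0, and the largest difference was 0.57, between *lys-3* and *lys-8*.

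**Figure D4:**
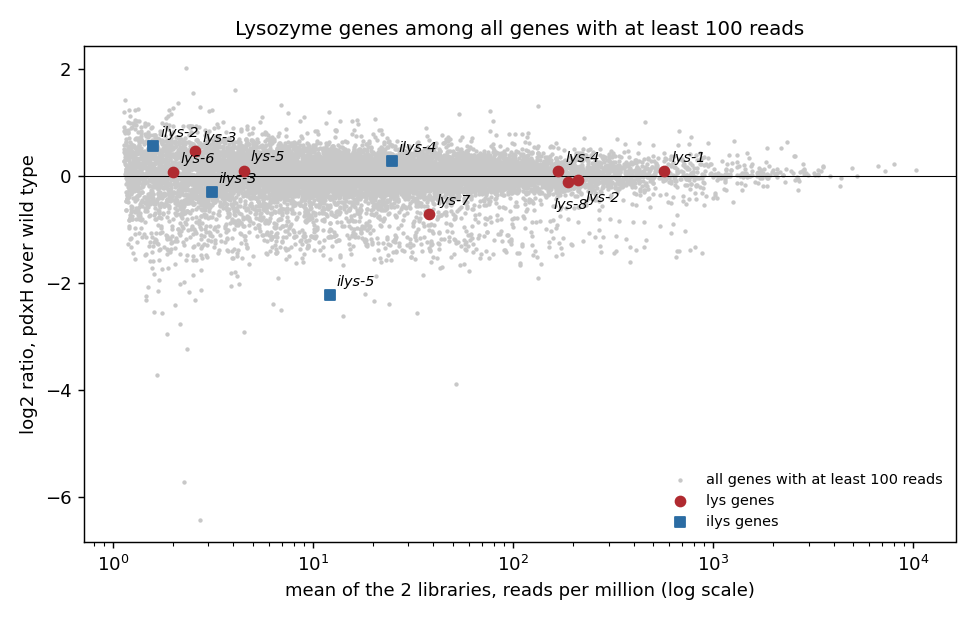
Log2 ratio (y axis, *pdxH* over wild type) against the mean level in RPM on a log scale (x axis) for the 13227 genes with at least 100 reads in both libraries together (gray), with the *lys* genes as red circles and the *ilys* genes as blue squares. *lys-7* lies at -0.71 and *ilys-5* at -2.23, and the other *lys* genes lie between -0.11 and 0.47.

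The invertebrate-type lysozymes *ilys-1* to *ilys-6* held far fewer reads, 1920 on the wild-type diet and 1669 on the *pdxH* diet, and 1 of the 6 was called lower and 0 were called higher, where 3.78% of all genes with reads were called lower. *ilys-5* (WBGene00017691, chromosome X, 6533490 to 6536840) had 814 reads on the wild-type diet and 197 on the *pdxH* diet, or 19.996 and 4.25 RPM. The *pdxH* library was 4.69-fold lower, a log2 ratio of -2.23 (95% interval -2.46 to -2.01), and 0.151% of the genes with at least 100 reads had a lower ratio. This call held with an assumed CV of 0.2 between cultures, where the tail was -1.25. *ilys-4* was slightly higher, with 914 and 1255 reads (log2 ratio 0.27, 95% interval 0.15 to 0.39). *ilys-3*, a gene known to act in the digestion and defense against Gram-positive bacteria, had 140 and 129 reads, and its log2 ratio of -0.30 had an interval that held 0 (-0.65 to 0.04). *ilys-2* had 52 and 88 reads and was at 0.56 (95% interval 0.08 to 1.06), and *ilys-1* and *ilys-6* had 0 reads in each library. The median of the 4 genes with reads was -0.02. Without *ilys-5* the other *ilys* genes summed to 27.2 RPM on the wild-type diet and 31.7 on the *pdxH* diet.

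Reads of overlapping genes could reach only a few members. *lys-8* overlaps *C17G10.13* on the opposite strand over 38 exonic bases, and that gene had 437 and 520 reads against 7900 and 8359 for *lys-8*. *lys-4* holds the piRNA gene *21ur-8714* outside its exons, with 5 and 6 reads. *ilys-4* lies within *atic-1* on the opposite strand, without shared exonic bases, and *atic-1* had 1765 and 2030 reads. No annotated gene overlaps *lys-7*, and the nearest, *srbc-33*, is 359 bases away with 9 and 14 reads. How far reads of similar *lys* genes were shared or dropped in the authors' counting was not tested, because sequences were not used here.

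Other genes for antimicrobial proteins were set beside the lysozymes. Saposin-like proteins, encoded by the *spp* genes, include peptides that make pores in bacterial membranes. Of the 25 *spp* genes listed, 24 had reads, 5 were called lower and 0 higher, where 3.78% of all genes with reads were called lower, and the median log2 ratio was -0.41 against 0.0042 for all genes with reads. Over the 18 *spp* genes with at least 100 reads, which include the 5, the median was -0.33 against 0.010 for all such genes. Of all such genes 5.52% were called lower. The 5 were *spp-4* with 274 and 122 reads (log2 ratio -1.35), *spp-7* with 197 and 96 (-1.22), *spp-13* with 869 and 459 (-1.11), *spp-23* with 411 and 243 (-0.94) and *spp-18* with 317 and 201 (-0.84). *spp-14* had the most reads, 25954 and 31364, and a log2 ratio of 0.08 (95% interval 0.06 to 0.11), close to that of *lys-1*. The defensin-like *abf* genes held 0 calls among 6, which is near the share over all genes with reads (3.78% lower and 0.601% higher). Their median was 0.19, and most of their reads were in *abf-6*, at 1332 and 1827, where the log2 ratio was 0.27.

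None of the genes listed for the signaling that controls gut immunity was called. Of all genes with reads 3.78% were called lower and 0.601% higher, so 0 calls in lists of 6 and 8 genes is near that share. Nothing about the signaling is read from it. The p38 pathway runs from the adaptor TIR-1 through the kinases NSY-1, SEK-1 and PMK-1 to the transcription factor ATF-7, and VHP-1 is a phosphatase that restrains it. Of its 6 genes 0 were called, and the median of their log2 ratios was 0.15, between 0.08 and 0.18. *atf-7* had the most reads, 9564 on the wild-type diet and 12053 on the *pdxH* diet. Of 8 genes for transcription factors 0 were called, with a median of 0.13 and a range of -0.10 to 0.26. Of these, *elt-2* and *elt-7* are also among the intestine markers described below. *daf-16* had 14436 and 19687 reads and was at 0.26 (95% interval 0.23 to 0.29), the highest of the 8. *zip-2* had the most reads on the wild-type diet, 15647 against 16606, and a log2 ratio of -0.10. *hlh-30*, which encodes the worm TFEB factor that drives antimicrobial genes during infection with *Staphylococcus aureus*, was at 0.21. *elt-2*, which encodes the main GATA factor of the intestine, was at -0.06 (95% interval -0.17 to 0.04). RNA levels do not show the activity or location of these factors. For DAF-16 the paper reports the location, seen with a fluorescent reporter. Nuclear DAF-16 was more frequent on *L. plantarum* with the *pdxH* mutant than with BW25113, and added pyridoxal 5′-phosphate reversed this. The paper also reports that *daf-16* null worms still arrested when fed *L. plantarum* alone. Whether DAF-16 plays a part in the *lys-7* value was not tested.

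**Figure D5:**
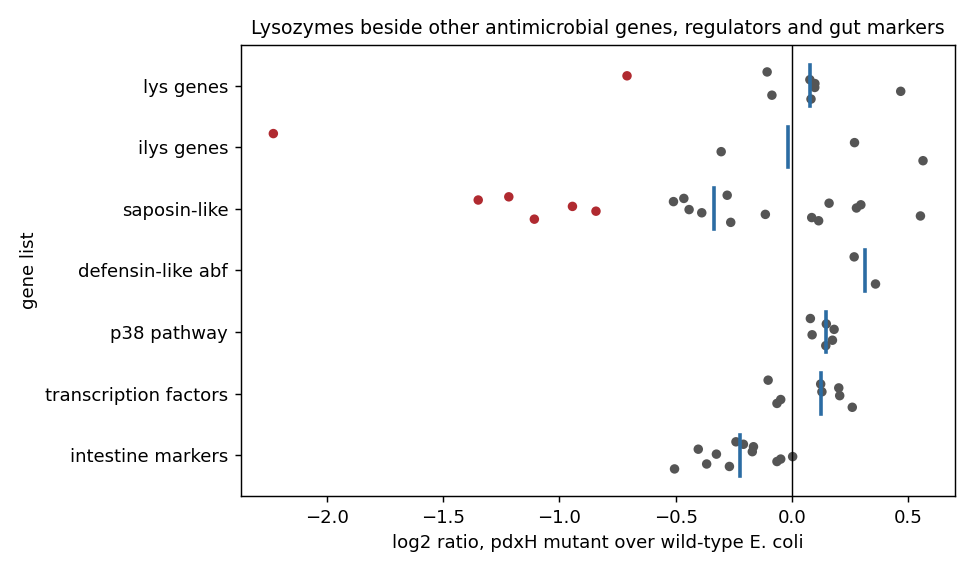
Log2 ratio (x axis, *pdxH* over wild type) of single genes that reached 100 reads over both libraries, by gene list (y axis). Blue lines mark the median of the genes drawn, red points the genes called lower, which are *lys-7*, *ilys-5* and 5 *spp* genes, and the vertical line a ratio of 0. *elt-2* and *elt-7* are drawn under both the transcription factors and the intestine markers.

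Markers of the intestine were lower on the *pdxH* diet than the lysozyme genes as a group. None of the 12 intestine markers was past the call (0 higher and 0 lower), where 3.78% of all genes with reads were called lower and 0.601% higher. Of the 12 markers, 11 had a log2 ratio below 0, with a median of -0.22 and a range of -0.50 to 0.0032 over the list. Their summed level was 5719 RPM on the wild-type diet and 4667 on the *pdxH* diet, of which *asp-1* alone held 2892 and 2401. In 9 of the 12 the interval lay below 0. It held 0 for *ges-1* at 0.0032, *elt-2* at -0.06 and *elt-7* at -0.05. When the ratios were centred on the median of these markers (an alternative added once the values were known), every ratio shifted upward by 0.22. *lys-2* and *lys-8* then changed sign to 0.14 and 0.12, and the counts over all genes became 650 higher and 574 lower in place of 139 and 875. The order of the *lys* ratios does not depend on the centring.

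Markers of other tissues were present in both libraries. Their median log2 ratios were 0.24 for 10 neuron markers, -0.19 for 8 body wall muscle markers, 0.01 for 6 pharynx markers, -1.18 for 8 epidermis markers and -0.71 for 8 germline markers, with 5 genes called lower in each of the last 2 lists and 0 called in the others, where 3.78% of all genes with reads were called lower. Among the epidermis markers not called, *elt-3* was at 0.17 and *lin-26* at -0.27. The summed level of the epidermis markers was 2859 and 1181 RPM. Most of it was in a few called genes: *dpy-13* (972 and 339 RPM), *sqt-3* (962 and 363) and *rol-6* (553 and 219). The sum thus mainly reflects these genes. The vitellogenin genes, which mark adults, had 52 and 39 reads in all, and *vit-5* was at 0. The methods of the paper describe the collected worms as being of the same stage but do not name it. The paper also reports that worms on *L. plantarum* with a trace of the *pdxH* mutant arrested early in development. Whether the libraries were matched in development was not tested here. Whether the differences in these markers play a part in the *lys* values was not tested either.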

How the data were processed

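RNA from whole worms, 1 library per diet, was sequenced as paired reads. The authors trimmed reads with Trimmomatic, mapped them with STAR 2.5.3a at default settings (ce11), assigned them to genes with HTSeq and ran GFOLD 1.1.4 on the pair of libraries. The strand setting of the counting is not given in the sources used here. The deposited signal columns, which GFOLD names RPKM, use a length of 20 bases for every gene and are thus reads scaled by the library total. Reads were recovered by dividing by what 1 read is worth (1.23 on the wild-type diet, 1.08 on the *pdxH* diet). Within a tolerance of 0.02, 97.8% and 97.6% of values above 0 came out whole, and 100% of those up to 20 reads. The authors' GFOLD, error rate and fold change columns were not used.

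The log2 ratio used a pseudocount of 1. Its 95% interval and 1% tail come from the posterior of a ratio of Poisson rates, computed with scipy 1.17.1 in python 3.11.15. The code was tested on data simulated from the same Poisson model without variation between cultures. Such data cannot show how often real single libraries give false calls. Sums have exact Poisson intervals. Intervals cover counting error only, and PCR copies are not independent molecules. Symbols were found for 44017 identifiers, and 46817 are in the Ensembl 115 annotation (WBcel235), which gave positions and merged exon lengths. The alternatives were other thresholds, pseudocounts, scalings and a filter on reads. No test between the diets was possible, since neither has a replicate. All 10 members were named, and from 5 further lists each called gene (at most 5 a list) and the gene with the most reads. *daf-16*, *hlh-30*, *elt-2*, *elt-3*, *lin-26* and *ilys-2* to *ilys-4* were named beside them after their values were seen. So were *abf-5*, *elt-7*, *ges-1*, *asp-1*, *rol-6*, *sqt-3* and *dpy-13*. Of these, *daf-16* also had the most reads of its list on the *pdxH* diet, and *ilys-4* had the most of its list on each diet. *zip-2* had the most of its list on the wild-type diet alone. The members and lists were chosen with earlier results of these data known.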

Additional observations from a re-analysis of the deposited data

How the results depend on the processing

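No paired analysis was possible because the diets have 1 library each and no replicate numbers, and no library could be left out. The counts depended on the call. Against 0 higher and 1 lower *lys* genes and 139 higher and 875 lower genes in all, a threshold of 1 on the tail gave 0 lower *lys* genes and 10 and 317 genes in all. Any tail away from 0 gave 3 higher and 3 lower *lys* genes, and 3563 and 3515 in all. A log2 ratio past 0.5 without allowance for counting error gave 1 higher *lys* gene (*lys-10*, at 1 and 2 reads) and 4123 and 4499 genes in all with a pseudocount of 1, and 1 higher *lys* gene with 4247 and 4641 genes with a pseudocount of 0.1. Median-of-ratios scaling, upper quartile scaling and a filter of 10 reads kept each of these counts within 1.5 times. Further alternatives were chosen after seeing the data. An exact binomial test of each gene's reads, which compares these libraries and not the diets, called 716 and 1388 genes with a log2 ratio past 0.5, among them *lys-7*. Centring on the intestine markers gave 0 lower *lys* genes and 650 and 574 genes in all. An assumed CV of 0.1 gave 0 lower *lys* genes and 31 and 489 genes, and a CV of 0.2 gave 0 and 4 and 146. The median log2 ratio of the *lys* genes was 0.08, 0.11 with upper quartile scaling and 0.31 with centring on the intestine markers. The log2 ratio of the summed *lys* reads was 0.00023, 0.031 with upper quartile scaling and 0.22 with that centring. Of 62 log2 ratios of single *lys* genes under the alternatives, 56 stayed within the gene's counting interval and 6 moved past it, 5 of them with that centring. At this depth *lys-5*, *lys-6*, *lys-9* and *lys-10* allow no statement on direction.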
